A study of Mus musculus and Rattus norvegicus with 32 samples.

Results

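The liver makes most of the proteins that clot blood and many of those that restrain clotting, and the transcripts of 10 such proteins were followed here in mice and rats given trichloroethylene (TCE), an industrial solvent that causes liver tumours in mice. The genes were the coagulation factors F2, F5, F7, F9, F10 and F12, the prekallikrein gene Klkb1, and the anticoagulants Serpinc1, Proc and Pros1. They are 10 of 9931 gene symbols on the arrays, and were taken as the probe sets whose single annotated symbol was one of these names, with letter case ignored. This gave 20 of 21162 probe sets: 13 of 12422 on the mouse array, covering all 10 genes, and 7 of 8740 on the rat array, covering F2, F9, F10, Klkb1, Proc and Pros1. F5, F7, F12 and Serpinc1 matched no rat probe set. In mouse liver 6 and 7 of the 13 probe sets were called lower after 1 and 14 doses of TCE, against 4.14% and 8.48% of all. The members had been chosen with earlier results of these data known, so this comparison is a description. F2 was at 0.476 and 0.443 and Proc, on 95585_at, at 0.507 and 0.523 of the oil level. In rat liver 1 of the 7, of F10, was called lower after 1 dose (0.503% of all). After 14 doses none was called (2.81% of all passed in either direction). Most mouse single-dose calls and that of rat F10 depended on single arrays. A Gapdh control reading, a sign of RNA loss, was raised on 3 of 4 mouse TCE arrays after each schedule. With that reading as a covariate, none of the 6 mouse single-dose calls was kept, while the 7 repeated-dose calls were. No member call in either species was kept with quantile normalization.

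Livers came from male B6C3F1 mice and male SD rats that were gavaged with 1500 mg/kg TCE in corn oil, or with corn oil only. Dosing was on 1 day (animals 8 weeks old) or daily for 14 days (animals 10 weeks old), and liver was taken 18 hours after the last dose. Each of the 8 groups held 4 arrays, 32 in all, each hybridised with labelled RNA of 1 sample. The sources used here do not say that each array was a separate animal, so the p-values speak for the variation among samples, some of which may be technical. Whole liver was used, so fewer cells of a type and less RNA per cell cannot be told apart.

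Clotting runs as a cascade of serine proteases. F7 with tissue factor starts the extrinsic arm; F12 and plasma kallikrein, made from Klkb1, start the contact arm, which reaches F9; both arms activate F10, which with its cofactor F5 turns prothrombin (F2) into thrombin, the protease that makes fibrin. Antithrombin (Serpinc1) inhibits thrombin and F10, while activated protein C (Proc) with its cofactor protein S (Pros1) destroys activated F5. F2, F7, F9, F10, Proc and Pros1 carry glutamates that a vitamin K-dependent carboxylase, Ggcx, modifies in the hepatocyte. Hepatocytes are the main source of nearly all of these proteins, and nuclear receptors such as HNF4 are known to act on the promoters of several of them.

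Promoter letters were read from RefSeq (mouse build GRCm38.p6) for 9 of the 10 genes, all but Proc. The window ran from 250 bases before to 50 bases after each gene start. The 6-base nuclear receptor motif AGGTCA, searched on both strands, was present in 5 of the 9 windows, compared with 16% of 27025 mouse promoters of the same length. In all 5 it lay just before or at the gene start, from 57 to 5 bases upstream. The 30 bases around each match are shown because these are the members that share it, with the motif in capitals, 5′ to 3′ on the strand that reads AGGTCA. The coordinates are chr1:164151766-164151795 (minus strand) for F5, chr2:91636473-91636502 (plus strand) for F2, chr8:13025988-13026017 (minus strand) for F7, chr8:13037266-13037295 (minus strand) for F10 and chrX:59999447-59999476 (plus strand) for F9. The windows read:
F5: aggggcttgttgAGGTCActcccccctgtg
F2: gtggcaagggagAGGTCAgcagatcagggc
F7: ccgggagggcaaAGGTCAggggggagggga
F10: tgtcttgacacaAGGTCActtctctcatac
F9: atctcctaacaaAGGTCAtgaagcacctga
In F7 and F9 the motif overlaps CAAAGG, the core of the HNF4 motif, which was in 5 of the 9 windows (F7, F9, F12, Klkb1 and Pros1) and 20.3% of all promoters. The longer HNF4 core CAAAGTCC was in 0 of the 9 and in 1.44% of promoters. The C/EBP motif TTGCNNAA was in 3 (F9, Klkb1 and Serpinc1; 10.8% of promoters), the FOXA motif TGTTTNC in 3 (F10, Klkb1 and Pros1; 20.5%) and the HNF1 motif GTTAAT in 1 (F2; 7.2%). The motifs were chosen after the promoters had been read, and a match is a description of letters, not a binding site. F7 and F10 are direct neighbours in the genome, F10 lies beside Proz, another vitamin K-dependent plasma protein, and Klkb1 beside F11.

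Deposited values were relative to corn oil: within a species and schedule, the oil arrays of each probe set had a median of 1 to within 0.0005. Levels of different genes therefore cannot be ranked, and whether the liver's defining markers are present cannot be read from the files. The Gapdh control probe sets read the 3′ and 5′ ends of 1 transcript. They differed by more than 1 on the log2 scale on 10 arrays, 9 of them TCE arrays. Both ends are relative to oil, so a positive difference is a sign of more 5′ loss than at the oil median. A low difference does not show intact RNA. In mouse liver the arrays above 1 were 3 of 4 TCE arrays after each schedule and 1 repeated-dose oil array. In rat they were 1 and 2 TCE arrays. The TCE and oil means of this difference were 1.51 and -0.03 in mice after 1 dose (exact permutation p = 0.0571), 1.03 and 0.26 after 14 doses (0.371), 0.26 and -0.04 in rats after 1 dose (0.886) and 1.20 and 0.12 after 14 (0.0571); these exact tests are two-sided with a smallest possible p of 0.0286. The same measure on beta-actin had TCE and oil means of 0.74 and -0.02 in mice after 1 dose (exact p = 0.0286), 0.64 and -0.08 after 14 (0.0571), 0.14 and 0.08 in rats after 1 dose (0.857) and 0.64 and -0.07 after 14 (0.229). Its part in the member results was not tested beyond the values given beside them.

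In mice given 1 dose, 6 of the 13 member probe sets fell (adjusted p under 0.05 with limma), 1 for each of F2, Proc, Serpinc1, F10, F12 and Klkb1, and 0 rose. Over all mouse probe sets 4.14% were called lower. Such shares are given as a description, since the members were chosen with earlier results of these data known. On 7 of the 13 all 4 TCE arrays lay below all 4 oil arrays, against 9.62% of all probe sets. All members but Proc 161656_r_at had a pooled within-group SD of 0.154 to 0.354, below the median of 0.419 over mouse probe sets. A change of a given size is therefore called more easily for them than for a typical probe set. The median log2 change over the 13 was -0.56, and over all mouse probe sets -0.09. After 14 doses 7 of the 13 fell, 1 for each of F2, Klkb1, Proc, Pros1, F12, F10 and F7, and 0 rose, with 8.48% of all probe sets called lower. Again 7 of the 13 had all TCE arrays below all oil arrays (12.4% of all), and the medians were -0.73 and -0.15. By role, both contact-arm genes, 2 of 3 common-pathway genes and 2 of 3 anticoagulants fell after each schedule. Of the 6 vitamin K-dependent genes, with 9 probe sets, 3 fell after 1 dose and 5 after 14. Of the other 4, with 4 probe sets, 3 and 2 fell. A gene counted if any of its probe sets was called, and no member passed the test of a schedule difference. After centring on array medians 3 and 5 of the 13 were called lower (2.86% and 4.07% of all probe sets), and the repeated-dose calls of F10 (adjusted p = 0.0578) and F7 (0.0585) were lost. With quantile normalization 0 of the 13 were called in either schedule, and 59 and 7 of all mouse probe sets were.

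**Figure D1:**
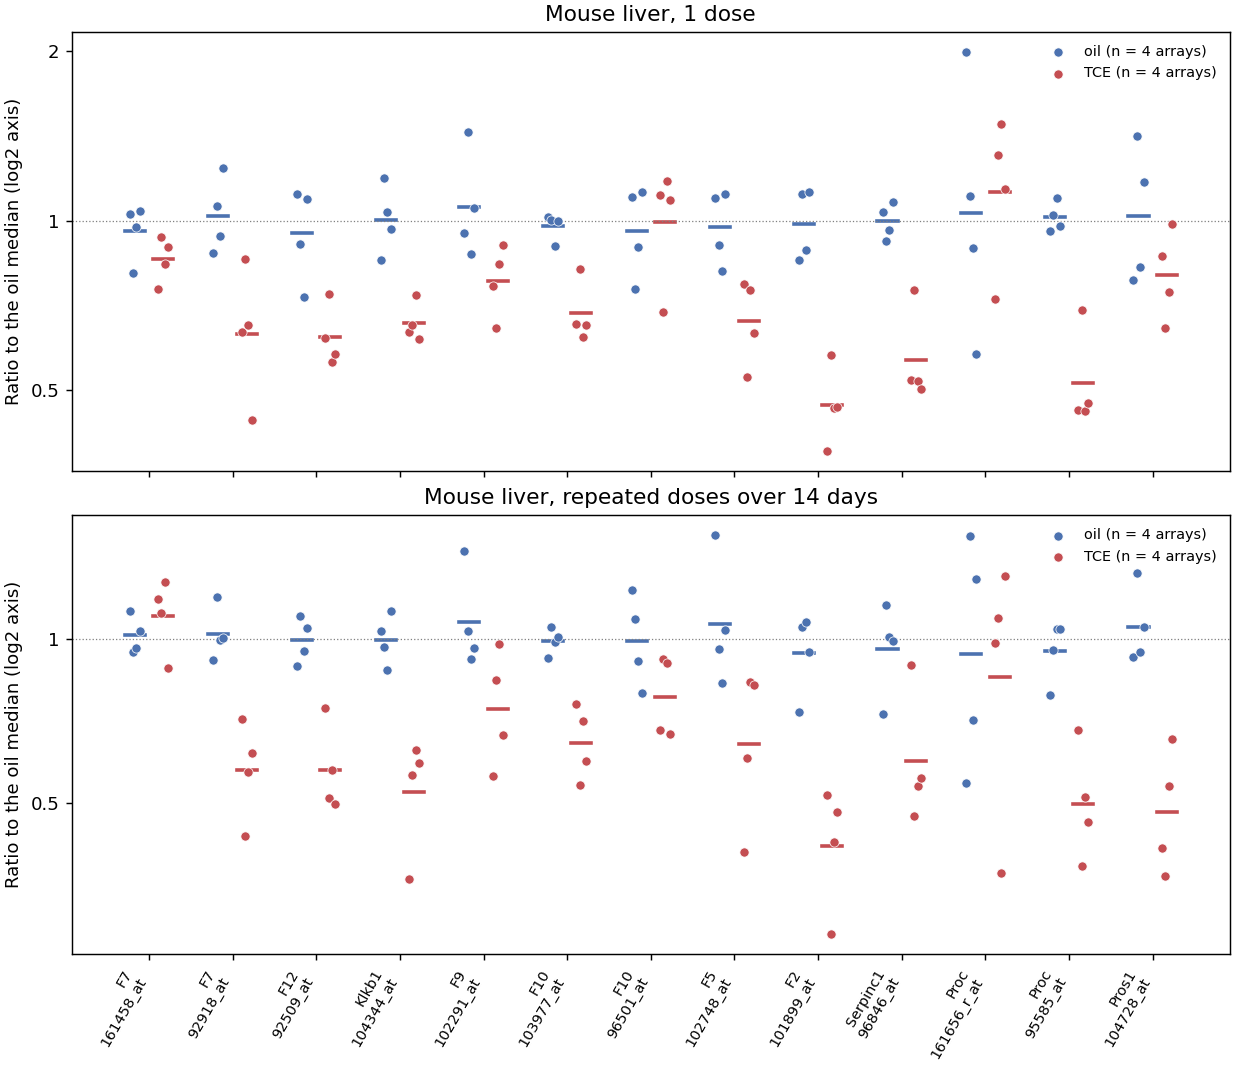
Deposited ratio (log2 axis, oil median of the schedule at 1) of the 13 mouse member probe sets on each array. Points are single arrays of oil and TCE groups after 1 and 14 doses and bars are means of the log2 values; for F2 every TCE array, 0.287 to 0.577, lies below every oil array, 0.736 to 1.13.

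The extrinsic starter F7 had 2 mouse probe sets that differed. On 92918_at the TCE arrays read 0.635, 0.854, 0.651 and 0.442 after 1 dose, against 0.874, 1.061, 0.939 and 1.238 for oil. The groups did not overlap, but the change of -0.70 ± 0.21 (log2 ± SE, n = 4 and 4, as throughout) missed the threshold (limma adjusted p = 0.0536). It passed without TCE 2 (-0.85, adjusted p = 0.0231). On the same probe set the arrays after 14 doses read 0.715, 0.435, 0.571 and 0.619 for TCE and 0.914, 1.197, 0.995 and 1.005 for oil. That was a fall of 0.83 ± 0.21 (adjusted p = 0.0235), lost without oil 2, oil 4 or TCE 2 (adjusted p 0.0512 to 0.0722). The other F7 probe set, 161458_at, overlapped between groups in both schedules, with TCE ratios of 0.756 to 0.936 after 1 dose and 0.884 to 1.275 after 14, and log2 changes of -0.16 ± 0.15 (adjusted p = 0.542) and 0.12 ± 0.15 (0.639).

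Both genes of the contact arm fell. F12, the protease whose activation on surfaces opens that arm, read 0.619, 0.739, 0.56 and 0.579 on TCE arrays after 1 dose and 1.115, 0.909, 0.732 and 1.091 on oil arrays. TCE 2 lay just above oil 3 and the other arrays were apart. The fall was 0.61 ± 0.18 (limma adjusted p = 0.0466), and the call was lost when oil 1, oil 2, oil 4, TCE 1, TCE 3 or TCE 4 was left out (adjusted p 0.0807 to 0.116). Repeated dosing gave TCE ratios of 0.749, 0.512, 0.576 and 0.499 and oil ratios of 0.892, 1.103, 0.953 and 1.047, with no overlap. This fall was 0.79 ± 0.18 (adjusted p = 0.0141) and passed with each array left out in turn.

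Klkb1 encodes prekallikrein, which F12 activates and which activates F12 in return. After 1 dose its TCE arrays read 0.635, 0.652, 0.737 and 0.617 and its oil arrays 0.852, 1.19, 1.035 and 0.965. The groups did not overlap and the fall was 0.61 ± 0.18 (limma adjusted p = 0.0495), a call that was lost whichever of the 8 arrays was left out (adjusted p 0.0507 to 0.126). Repeated-dose TCE arrays read 0.363, 0.563, 0.625 and 0.592 against oil arrays of 1.034, 0.966, 0.879 and 1.128. No TCE array reached the oil range, and the fall of 0.93 ± 0.18 (adjusted p = 0.0072) passed with each array left out.

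F9, the protease whose deficiency causes haemophilia B, did not pass the test in either schedule. After 1 dose its TCE arrays read 0.765, 0.644, 0.837 and 0.905, and the oil arrays 0.949, 1.437, 0.871 and 1.051. TCE 4 alone lay above the lowest oil array, and the log2 change was -0.44 ± 0.22 (limma adjusted p = 0.242). After 14 doses the TCE ratios were 0.562, 0.841, 0.981 and 0.667 and the oil ratios 1.452, 1.035, 0.921 and 0.965, a change of -0.53 ± 0.22 (adjusted p = 0.134).

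F10, where both arms of the cascade meet, also had 2 mouse probe sets that differed. On 103977_at the TCE arrays read 0.656, 0.821, 0.622 and 0.653 after 1 dose and the oil arrays 1.014, 1.001, 0.902 and 0.999. The groups were apart and the fall was 0.52 ± 0.14 (limma adjusted p = 0.0381), a call that held without TCE 2 and was lost without each of the other 7 arrays (adjusted p 0.0627 to 0.0996). After 14 doses it read 0.761, 0.541, 0.707 and 0.598 against 0.925, 1.052, 0.989 and 1.011, a fall of 0.62 ± 0.14 (adjusted p = 0.0149) that passed with each array left out. Probe set 96501_at read 1.109, 0.687, 1.175 and 1.089 on TCE arrays after 1 dose against 1.101, 0.756, 0.899 and 1.122, and its changes were 0.05 ± 0.21 (adjusted p = 0.914) and -0.34 ± 0.21 (0.327) after 1 and 14 doses.

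F5, the cofactor of activated F10, was lower on all TCE arrays after 1 dose without passing the test. Those arrays read 0.77, 0.527, 0.752 and 0.632, and the oil arrays 1.095, 0.905, 0.813 and 1.115. The change was -0.56 ± 0.25 (limma adjusted p = 0.19). After 14 doses the TCE ratios were 0.406, 0.604, 0.835 and 0.824 and the oil ratios 1.552, 0.96, 0.83 and 1.04, with TCE 3 just above oil 3 and a change of -0.73 ± 0.25 (adjusted p = 0.074).

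F2, which encodes prothrombin, had the lowest adjusted p of the members in both schedules. After 1 dose the TCE arrays read 0.389, 0.577, 0.464 and 0.467 and the oil arrays 0.852, 1.114, 0.886 and 1.125. After 14 doses they read 0.517, 0.287, 0.424 and 0.482 against 0.736, 1.052, 1.074 and 0.948. In neither schedule did a TCE array reach an oil array. The falls were 1.07 ± 0.21 (limma adjusted p = 0.00742) and 1.18 ± 0.21 (0.00461) on the log2 scale, and both passed with each array left out in turn.

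Of the anticoagulants, Serpinc1, the antithrombin gene, read 0.52, 0.754, 0.519 and 0.502 on TCE arrays after 1 dose and 1.036, 0.921, 0.964 and 1.081 on oil arrays. The groups did not overlap, and the fall was 0.82 ± 0.21 (limma adjusted p = 0.0288). Leaving out TCE 2 kept the call, and leaving out any of the other 7 arrays ended it (adjusted p 0.0539 to 0.0831). After 14 doses the TCE ratios were 0.896, 0.473, 0.537 and 0.556 and the oil ratios 0.73, 1.157, 1.008 and 0.992. TCE 1 overlapped the oil range, and the change of -0.69 ± 0.21 just missed the threshold (adjusted p = 0.0521); it was 0.0311 without oil 1 and 0.0142 without TCE 1, with changes of -0.82 and -0.88.

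Protein C, from Proc, fell on probe set 95585_at in both schedules. After 1 dose the TCE arrays read 0.461, 0.693, 0.459 and 0.475 and the oil arrays 0.959, 1.021, 1.097 and 0.979. After 14 doses the ratios were 0.681, 0.383, 0.514 and 0.461 against 0.79, 0.957, 1.045 and 1.043. No TCE array reached the oil range. The falls of 0.98 ± 0.19 (limma adjusted p = 0.00768) and 0.93 ± 0.19 (0.00895) passed with each array left out. The second Proc probe set, 161656_r_at, ranged from 0.545 to 1.991 on oil arrays alone and its changes were 0.12 ± 0.46 (adjusted p = 0.908) and -0.14 ± 0.46 (0.874).

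Protein S, from Pros1, the cofactor of activated protein C, passed the test after 14 doses. Its TCE arrays then read 0.413, 0.368, 0.538 and 0.655 and its oil arrays 0.927, 1.325, 0.946 and 1.054. The groups were well apart, and the fall of 1.13 ± 0.24 (limma adjusted p = 0.0102) passed with each array left out. After 1 dose the TCE arrays read 0.866, 0.644, 0.748 and 0.985 against 0.783, 1.411, 0.827 and 1.173, and the groups overlapped (-0.35 ± 0.24, adjusted p = 0.405). The difference between the schedules' changes was -0.78 ± 0.33 (95% interval -1.50 to -0.07, adjusted p = 0.219), the largest among the members. None of the 13 mouse probe sets passed the test of a schedule difference (0.877% of all did); 1 of them, Pros1, had an unadjusted p under 0.05 with limma, as had 18.8% of all probe sets. For F2 the difference of -0.11 had an interval of -0.73 to 0.52.

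**Figure D2:**
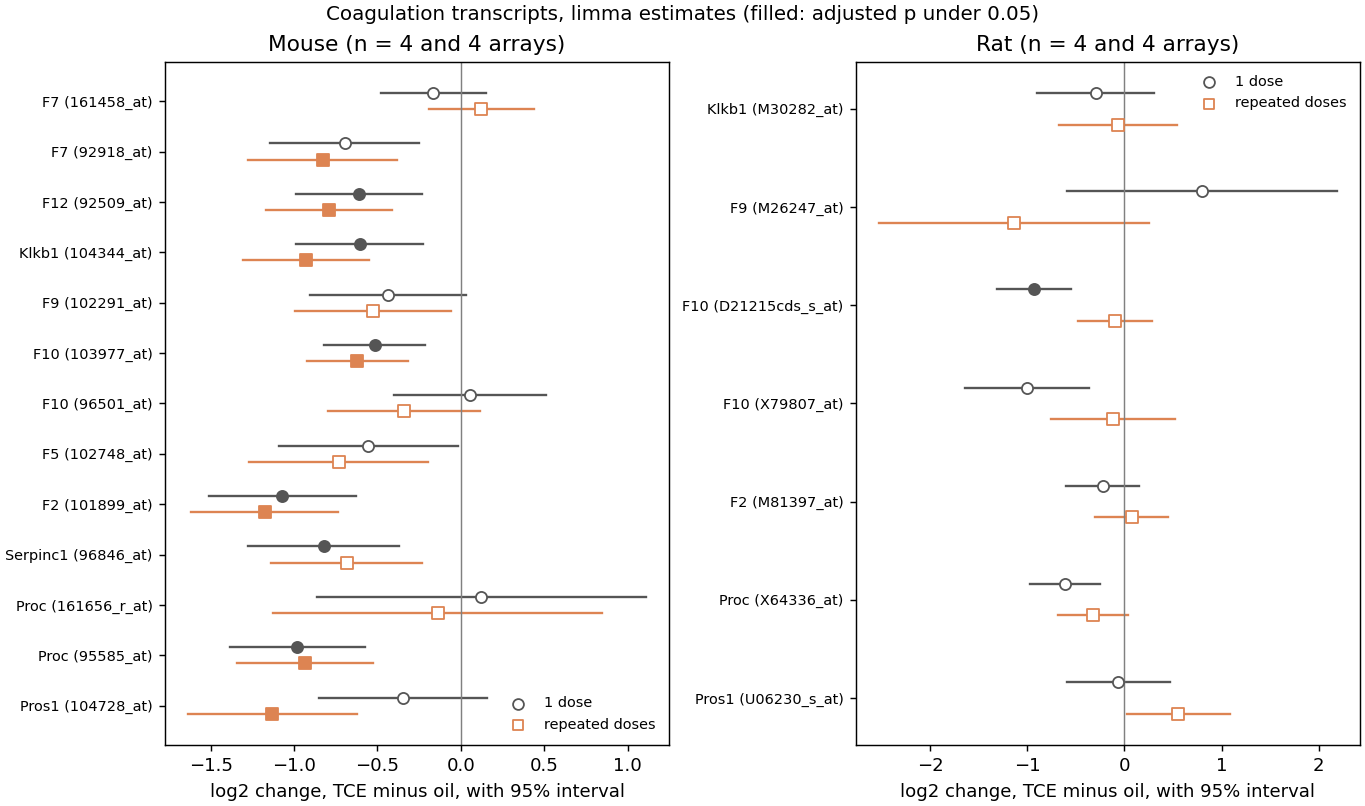
Log2 change of TCE against corn oil for every member probe set in each species and schedule, with 95% intervals from limma; filled points had an adjusted p under 0.05. In mouse the called changes run from -0.52 to -1.18 and in rat 1 probe set of F10 is called at -0.93.

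The Gapdh difference moved with the members in different directions. The mouse TCE arrays not above 1 were TCE 2 after 1 dose (Gapdh difference 0.09) and TCE 1 after 14 doses (-0.36). On both, the values of F2, Proc (95585_at), Serpinc1, F12, F7 (92918_at) and F10 (103977_at) were the highest of their TCE group. On repeated-dose TCE 1 those of F5, F9 and Klkb1 were the lowest. The repeated-dose oil array above 1, oil 1 (1.46), gave the lowest oil ratios of F2 (0.736), Proc (0.79) and Serpinc1 (0.73). It also gave the highest oil ratios of F5 (1.552) and F9 (1.452). Taken alone, single-dose TCE 2 lay below all 4 oil arrays on 10 of the 13 probe sets, where 30.2% of all probe sets did, and repeated-dose TCE 1 on 10 of the 13, where 33.7% did.

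**Figure D3:**
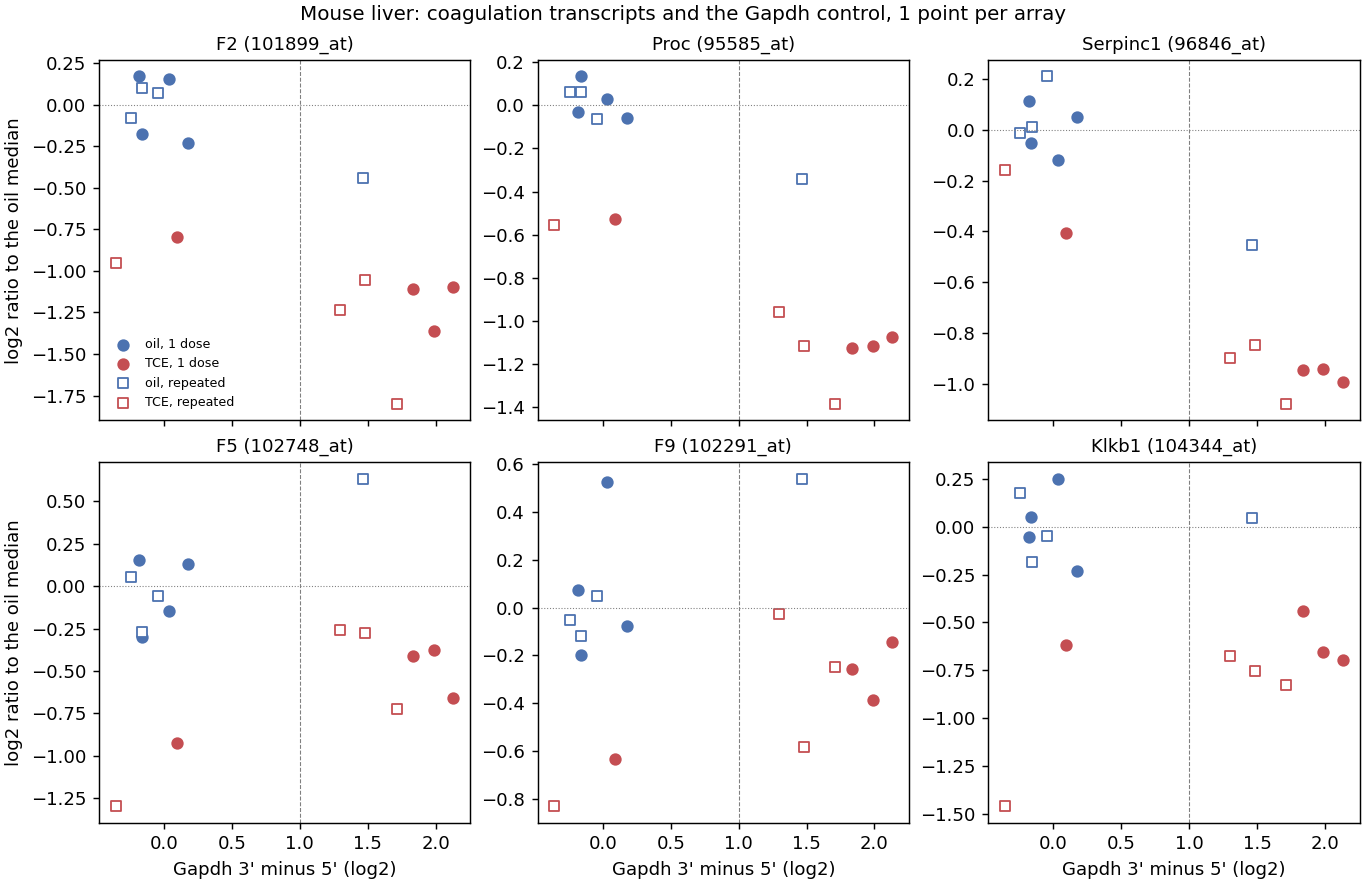
Log2 ratio of 6 mouse members on each of the 16 arrays against the Gapdh 3′ minus 5′ log2 value of the array, with a dashed line at 1. Within groups the fitted slopes are negative for Serpinc1 (-0.34) and Proc (-0.30) and positive for F5 (0.35), and TCE arrays on both sides of the line lie mostly below the oil arrays.

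With the Gapdh value as a covariate in the limma fit, the slope per log2 unit was -0.34 ± 0.06 for Serpinc1 (adjusted p = 0.00519), -0.30 ± 0.06 for Proc (0.00875) and 0.35 ± 0.09 for F5 (0.0398), and 714 of 12422 mouse probe sets had a called slope. In that fit all 10 genes had a probe set called lower after 14 doses (9.68% of all probe sets), among them F5 at -1.01 (adjusted p = 0.0069), F9 at -0.74 (0.0217) and Serpinc1 at -0.42 (0.0414). After 1 dose only 1 of the 13 was called (1.02% of all), F5 at -1.10 ± 0.22 (adjusted p = 0.0246). F2 was then at -0.69 (0.114), Proc at -0.52 (0.073) and Serpinc1 at -0.29 (0.356). Without the arrays above 1, a single TCE array was left in each mouse schedule, assumed to vary like the other groups, and 0 of the 13 member probe sets were called, where 0.0725% and 0.394% of all mouse probe sets were called lower; F2 was at -0.77 and -0.99.

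In rats given 1 dose, F10 was lower. Its probe set D21215cds_s_at read 0.417, 0.437, 0.558 and 0.564 on TCE arrays and 1.102, 1.079, 0.693 and 0.921 on oil arrays. All TCE arrays were below all oil arrays and the fall was 0.93 ± 0.18 (limma adjusted p = 0.0232), 1 of 7 member probe sets called, where 0.503% of all rat probe sets were called lower. The call was lost without oil 2, oil 4, TCE 1, TCE 2 or TCE 4 (adjusted p 0.0517 to 0.0851). The second F10 probe set, X79807_at, read 0.429, 0.248, 0.664 and 0.632 against 0.959, 1.064, 0.679 and 1.041, without overlap, at -1.003 ± 0.298 (adjusted p = 0.0962), and in the fit with the Gapdh covariate both F10 probe sets were called lower, 2 of 7 (1.02% of all rat probe sets).

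Rat Proc read 0.686, 0.565, 0.607 and 0.633 on single-dose TCE arrays and 1.012, 0.99, 0.805 and 1.01 on oil arrays. These groups were also apart, but the change of -0.61 ± 0.17 missed the threshold (limma adjusted p = 0.0792). These 3 probe sets were those of the 7 with all TCE arrays below all oil arrays (3.72% of all). The other rat members overlapped: F2 read 0.767 to 0.924 on TCE arrays and 0.801 to 1.155 on oil arrays (-0.22 ± 0.18, adjusted p = 0.517), Klkb1 was at -0.30 ± 0.28 (0.598) and Pros1 at -0.07 ± 0.25 (0.906). The median change of the 7 was -0.30, while that of all rat probe sets was 0.14.

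**Figure D4:**
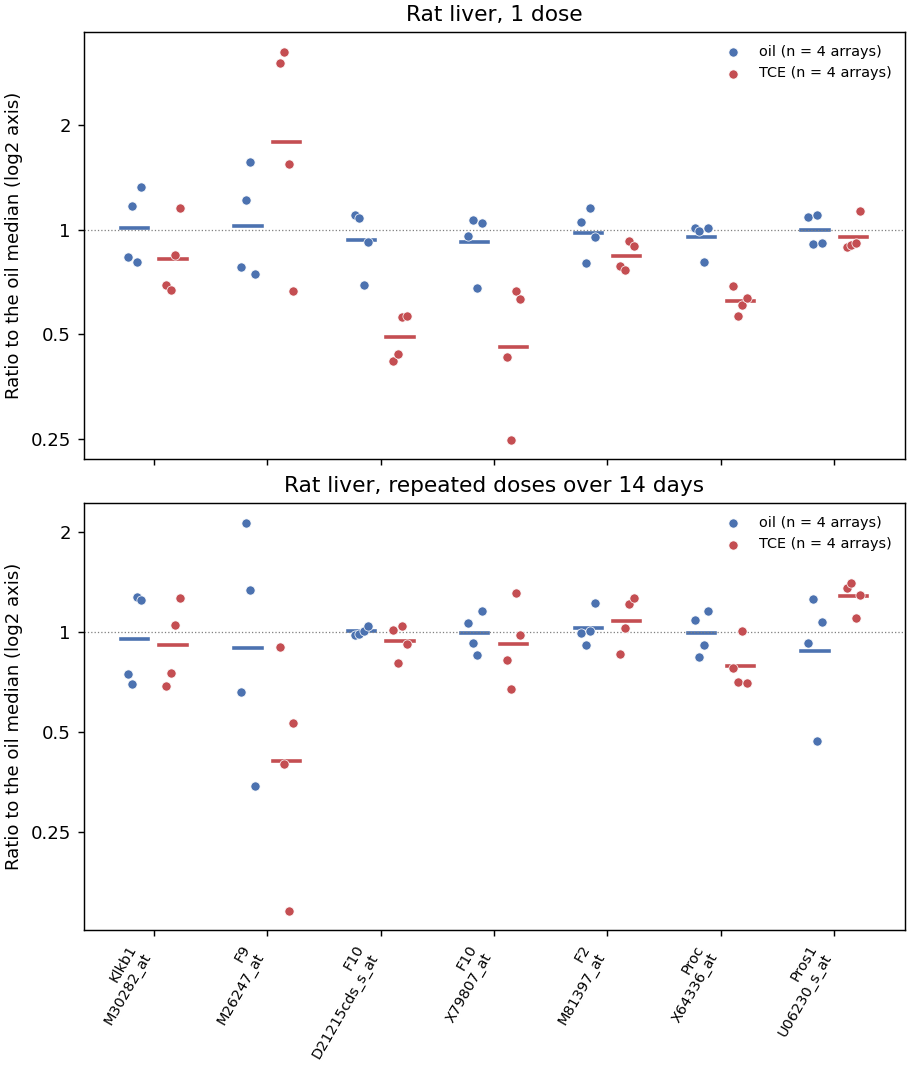
Deposited ratio (log2 axis, oil median of the schedule at 1) of the 7 rat member probe sets on each array, oil and TCE, after 1 and 14 doses; bars are means of the log2 values. After 1 dose both F10 probe sets and Proc have all TCE arrays below all oil arrays, and after 14 doses no probe set does.

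After 14 doses in rats, 0 of the 7 passed the test (limma adjusted p; 2.81% of all rat probe sets did in either direction) and 0 had groups apart (4.79% of all were below). Of the 7, 1, Pros1, had an unadjusted p under 0.05, as had 18.9% of all. Pros1 read 1.357, 1.405, 1.101 and 1.299 on TCE arrays and 0.925, 1.261, 0.47 and 1.075 on oil arrays (0.55 ± 0.25, adjusted p = 0.244), and its change was 0.25 ± 0.18 without oil 3, the lowest array (0.492). F10 was at -0.10 ± 0.18 and -0.12 ± 0.30, with TCE ratios of 0.806 to 1.045 on D21215cds_s_at and 0.675 to 1.313 on X79807_at. Proc read 0.78, 0.709, 1.011 and 0.704 against 1.086, 0.84, 0.914 and 1.159 (-0.32 ± 0.17, adjusted p = 0.316). F2 (0.07 ± 0.18) and Klkb1 (-0.07 ± 0.28) lay close to 0. No member passed the test of a schedule difference in rats (0% of all probe sets did); D21215cds_s_at, at 0.84 ± 0.25, was the 1 member with an unadjusted p under 0.05 (adjusted p = 0.413), as had 9.36% of all.

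Rat F9 spread most. Its TCE arrays read 3.019, 3.253, 1.544 and 0.664 after 1 dose and 0.904, 0.4, 0.145 and 0.531 after 14, and the repeated-dose oil arrays ranged from 0.344 to 2.14. The Gapdh differences of the same TCE arrays were -0.30, -0.66, 0.10 and 1.90 after 1 dose and 0.33, 0.82, 2.07 and 1.60 after 14. High F9 went with a low Gapdh difference, with a slope of -1.15 ± 0.23 per log2 unit in the covariate fit (limma adjusted p = 0.0228), 1 of 143 called slopes among 8740 rat probe sets. Without the covariate its changes were 0.80 ± 0.65 (adjusted p = 0.532) and -1.14 ± 0.65 (0.366). With the covariate F9 was called in neither schedule.

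The species were set against each other for the 6 genes on both arrays, by the contrast of mouse change minus rat change over 3056 shared gene symbols. Each species had its own array and probe sets, so a difference between species cannot be told apart from one between probe sets. After 14 doses 2 of the 6 passed, F2 and Pros1. Of all shared symbols, 8.51% had a mouse change called below the rat change. F2 was at -1.18 in mouse and 0.07 in rat, a difference of -1.25 ± 0.26 (limma adjusted p = 0.00274). For Pros1 the changes were -1.13 and 0.55, a difference of -1.68 ± 0.34 (adjusted p = 0.00212). Without rat oil 3 the rat change of Pros1 was 0.25 and the difference -1.38 (0.00374). Both passed with each of the 16 arrays left out in turn. Klkb1 differed by -0.86 ± 0.33 (adjusted p = 0.0932), Proc by -0.61 ± 0.24 (0.105, and 0.0411 without mouse TCE 1), F10 by -0.53 ± 0.21 (0.112) and F9 by 0.61 ± 0.70 (0.617).

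After 1 dose 0 of the 6 passed (4.22% of all did in either direction), and 1, F2, had an unadjusted p under 0.05 with limma, as had 21.1% of all. For F2 the difference was -0.85 ± 0.26 (adjusted p = 0.0607, 95% interval -1.38 to -0.31), and it passed without mouse oil 1, mouse TCE 2 or rat oil 3 (adjusted p = 0.0491, 0.0433 and 0.0421). F10, by 103977_at in mouse, was the member with the larger estimated fall in rat. Its difference of 0.42 ± 0.21 did not pass the test (interval -0.02 to 0.85, limma adjusted p = 0.262). F9 had the largest difference and the widest error, -1.23 ± 0.70 (adjusted p = 0.318). Pros1, Klkb1 and Proc differed by -0.28, -0.31 and -0.37, and these 3 intervals and that of F9 held 0. The median difference over all shared genes was -0.19 after 1 dose and -0.23 after 14.

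Other clotting genes were taken from a list of 21 (fibrinogen, F3, F8, F13, kininogen, and inhibitors such as Serping1), of which 17 were measured in mouse. Over all mouse probe sets 4.14% and 8.48% were called lower after 1 and 14 doses, with medians of -0.09 and -0.15. These shares also apply to the mouse lists and markers below. After 1 dose 5 of the 17 fell and 0 rose, with a list median of -0.44. After 14 doses 6 fell and 0 rose, with a list median of -0.62. All 3 fibrinogen chains, the substrate of thrombin, were among them: Fgb at -0.92 ± 0.18 and -1.40 ± 0.18 (limma adjusted p = 0.00914 and 0.00104), Fga at -0.71 and -1.17 (0.0172 and 0.00155) and Fgg called at both as well. F13b, a subunit of the factor that crosslinks fibrin, was at -0.88 and -0.82, and Serping1, which inhibits F12 and kallikrein, at -0.01 (0.987) and -0.72 (0.0076) after 1 and 14 doses. Habp2, a plasma protease known to activate F7, fell by 3.49 ± 0.55 after 1 dose (adjusted p = 0.00272) and was at -1.79 ± 0.55, with overlapping groups, after 14 (0.0528). With the Gapdh covariate the single-dose calls of Fga (0.104) and F13b (0.0947) were lost, and those of Fgb, Fgg and Habp2 were not. Fga lost its single-dose call without oil 2 or TCE 1 (adjusted p up to 0.0571), Fgg without all arrays but TCE 3 (0.058 to 0.0993) and F13b without oil 2, oil 4 or TCE 1 (0.0762 to 0.0883). The repeated-dose call of F13b was lost without oil 1, oil 2, oil 4, TCE 1, TCE 2 or TCE 4 (0.0599 to 0.0804). In rat 0 of 14 passed after either schedule, with medians of 0.02 and -0.16. Over all rat probe sets only 1.72% and 2.81% passed in either direction after 1 and 14 doses. These shares also apply to the rat lists and markers below.

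Of 4 measured genes of vitamin K recycling and carboxylation in mouse, 1 fell in each schedule, Ggcx, the carboxylase that matures F2, F7, F9, F10, Proc and Pros1. Its change was -0.90 ± 0.25 after 1 dose (limma adjusted p = 0.0421) and -1.38 ± 0.25 after 14 (0.00596). With the Gapdh covariate these were -0.54 (0.409) and -1.19 (0.00996). The single-dose call was lost without oil 2, oil 3, oil 4, TCE 1, TCE 3 or TCE 4 (adjusted p 0.0745 to 0.128), and the repeated-dose call held without each array. Calu, which encodes the chaperone-like calumenin, stood at 0.26 on the probe set used for the list, and its other one, 161208_r_at, was called lower after 1 dose (-1.75 ± 0.51, adjusted p = 0.049). In rat Ggcx was not called (probe set AF065387_at at -0.12 and -0.29), and of 3 genes Nqo1, a quinone reductase able to reduce vitamin K, rose by 2.04 ± 0.47 after 14 doses (adjusted p = 0.0324). That call was lost without oil 1, oil 3, oil 4, TCE 1, TCE 2 or TCE 3 (0.0555 to 0.0874), as well as with the Gapdh covariate (0.171), and its second probe set was at -0.90 ± 0.78.

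Clearance receptors and fibrinolysis moved in part. Asgr2, a subunit of the receptor that removes desialylated glycoproteins, fell by 1.44 and 0.98 and Lrp1, the receptor that clears protease-inhibitor complexes, by 0.65 and 0.69 in mouse after 1 and 14 doses, 2 of 3 genes. Asgr2 kept its single-dose call without each array and lost the other without all but oil 1 (limma adjusted p 0.0585 to 0.118). With the Gapdh covariate the single-dose changes were -0.95 for Asgr2 (0.149) and -0.29 for Lrp1 (0.386), and after 14 doses -0.73 (0.0833) and -0.51 (0.0225). Lrp1 lost its calls without all but TCE 2 after 1 dose (0.0558 to 0.0899) and without oil 2, oil 4, TCE 2 or TCE 4 after 14 (0.0516 to 0.0662). By the probe set that varied least within groups, 0 of 6 measured fibrinolysis genes passed after 1 dose; after 14 Hrg fell by 0.54 and Serpinf2, which inhibits plasmin, rose by 0.62 on 1 probe set. Its other probe set went the opposite way, at -1.85 ± 0.53 after 1 dose (limma adjusted p = 0.044) and -1.61 after 14 (0.0642). The Hrg call was lost without all arrays but TCE 3 (0.0516 to 0.0852) and that of Serpinf2 without oil 4 (0.0509). Mouse plasminogen (Plg) also had probe sets that differed: 161626_f_at, which stood for the gene, was at -0.17 and -0.31 and was not called, and 101985_at was at -1.208 ± 0.152 and -0.997 ± 0.152 (adjusted p = 0.00059 and 0.00234). Thus 2 of the 6 genes, Plg and Serpinf2, had another probe set called lower after 1 dose. In rat 1 of 4 fibrinolysis genes fell after 14 doses, Plg at -3.06 ± 0.64 (adjusted p = 0.0196), a call lost without oil 1 or TCE 2 (up to 0.0561) and at -1.70 (0.0414) with the Gapdh covariate. Factor transport genes (3 in mouse) and other Gla proteins (3) had 0 called in both schedules.

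Of 15 liver-enriched transcription factors in mouse, Rxra (-0.54) and Nr0b2 (-1.08) fell and Ppara (0.56) rose after 1 dose, and Foxa3 (-2.01) and Nr2f2 (-1.80 on 1 probe set, 0.50 on the other) fell after 14; 0 of 14 passed in rat. On probe sets not used for the list, Rxra (92234_at, -0.66, limma adjusted p = 0.0141) and Nr5a2 (102932_at, -0.90, 0.0433) were also called lower after 14 doses. Foxa3 and Nr2f2 held without each array and with the Gapdh covariate, which ended the single-dose calls of Rxra, Nr0b2 and Ppara (0.329, 0.4 and 0.177). Rxra was lost without oil 1, oil 2, oil 3, oil 4, TCE 1 or TCE 3 (adjusted p up to 0.119), Nr0b2 without oil 1, oil 3, oil 4, TCE 3 or TCE 4 (up to 0.102) and Ppara without oil 2, oil 3, oil 4, TCE 1, TCE 2 or TCE 4 (up to 0.079). Of 13 other secreted liver proteins in mouse, 3 fell after 1 dose and 4 after 14, led by Apob at -1.72 (limma adjusted p = 0.000505), with list medians of -0.29 and -0.43. Single-dose Apob was lost without oil 1, oil 2, oil 4, TCE 2, TCE 3 or TCE 4 (up to 0.089) and Apoh without all but TCE 2 (up to 0.103), and both with the Gapdh covariate (0.0811 and 0.2). Of the repeated-dose calls, Hpx was lost without all but oil 4 (up to 0.094) and Apoh without oil 2 or TCE 2 (up to 0.0521). The other Hpx probe set, 161827_f_at, was also called lower after 14 doses (-0.68, limma adjusted p = 0.0331). Serpina6 was called lower after 1 dose on a probe set not used for the list (-1.79, 0.00512). Counted in the same way, 0 of 16 passed in rat. However, 3 other rat probe sets of Apob rose after 1 dose, by 2.56 ± 0.48, 6.50 ± 1.05 and 4.59 ± 1.01 (limma adjusted p = 0.021, 0.0129 and 0.0409). The Apob probe set used for the list was then at -0.20 ± 0.18 (0.563) and M27440_at at 0.40 ± 0.25 (0.412). No rat Apob probe set was called after 14 doses. For Serpina1, 1 rat probe set fell by 1.04 after 14 doses (0.0183), and its others were not called. Albumin was at -0.07 ± 0.15 (adjusted p = 0.823) and -0.33 (0.173) in mouse. These lists were chosen with results of these data known, and their counts are descriptions.

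Markers of other cells were followed for the same arrays. Hepatocyte markers had 1 of 8 (Apob) and 2 of 8 (Apob, Tat) lower in mouse after 1 and 14 doses, with medians of -0.24 and -0.33, and TCE array medians of -0.39 to -0.13 and -0.46 to -0.32 against -0.10 to 0.09 and -0.11 to 0.15 on oil. Macrophage markers had 0 of 8 and 2 of 8 lower (Csf1r and C1qa; medians -0.42 and -0.59), endothelial markers 0 of 8 and 1 of 8 (Tek; -0.33 and -0.31), and stellate markers 1 of 8 (Sparc; -0.52) and 1 lower and 1 higher of 8 (0.05). Bile duct (3 genes), platelet (2) and exocrine pancreas (4) markers had 0 called, and of 5 leukocyte genes Ptprc fell after 14 doses. Leaving out single arrays ended the repeated-dose calls of Csf1r, C1qa, Tek, Tat, Ptprc and Sparc (adjusted p up to 0.132), and that of Col1a2, higher on 161156_r_at at 1.14, held, while its other probe set was at -0.81 (0.287). Single-dose Sparc held without each array and was lost with the Gapdh covariate (0.116). On probe sets not used for the counts, Tie1 (99936_at) fell by 1.14 after 1 dose (0.019), and Col3a1 (161984_f_at) was called lower at -2.91 after 1 dose (0.00235) and -1.76 after 14 (0.025), with another of its probe sets at 1.14 after 14 (0.302). Csf1r was also called lower after 14 doses on 104354_at (-0.90 ± 0.19, limma adjusted p = 0.0111). In rat the called markers were Pecam1, lower, and Sparc, higher, after 14 doses, the latter lost without TCE 2 (adjusted p = 0.0504). Both calls were lost with the Gapdh covariate (limma adjusted p = 0.0515 for Pecam1 and 0.115 for Sparc). The other rat probe sets of Sparc were not called. Because the files hold ratios, no marker's level could be read as 0, and the part of cell makeup in the member changes was not tested.

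Among 8240 other mouse genes, those whose log2 ratios followed the mean of the members most closely over the 16 arrays were Sdc4 (Pearson r = 0.974), H2-K1 (0.971) and Rab5c (0.95). The 16 arrays share the TCE and oil groups, so r largely carries that contrast. The member mean itself was -0.68 to -0.54 on single-dose TCE arrays and -0.15 to 0.08 on oil arrays, and -0.92 to -0.59 against -0.06 to 0.07 after 14 doses. In rat the closest of 4730 genes were Usf2 (0.86), Acp5 (0.85) and Tap2 (0.844). The rat member mean was -0.31 to -0.21 on single-dose TCE arrays, against -0.05 to 0.03 on oil arrays. On repeated-dose TCE arrays it was -0.37 to -0.08, overlapping the oil arrays at -0.18 to 0.09.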

How the data were processed

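Liver RNA was hybridised to Affymetrix arrays, 16 per species. Signals were made with MAS5, per the submitters' processing notes, with the version not given in the sources used here. The values the authors deposited were ratios: as the values show, a probe set's 4 oil values within a species and schedule have a median of 1. The sources used here do not describe the division or any scaling. The files hold ratios with no signal level, so precision rests on the 4 arrays per group. Control probe sets (66 mouse, 59 rat) were left out.

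Log2 ratios were fitted with limma 3.58.1 (R 4.3.3; lmFit, eBayes), with group means over the 16 arrays of 1 species, or over all 32, with Benjamini-Hochberg adjustment over all probe sets (or 3056 shared symbols) and a threshold of 0.05; the fit was checked on simulated data. Where a gene had several probe sets, the one that varied least within groups represented it in lists and in the species contrast. Every member probe set is named, list genes when past the threshold (at most 4 a list, by size) and the 3 genes of highest Pearson r per species; Fgg, Albumin and second probe sets of list genes were added after their values were seen. Members and lists were chosen with earlier results of these data known. Alternatives covered normalization, pseudocount, array weights, a filter, a Gapdh covariate and left-out arrays. Promoters came from RefSeq (GRCm38.p6).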

Additional observations from a re-analysis of the deposited data

Results flagged for a closer look

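Of 80 groups of 4 arrays (a member probe set in a species, schedule and treatment), 6 held an array far from the other 3 by Dixon's criterion at 95%, under which chance gives about 1 in 20. Mouse single-dose TCE 2 accounted for 3 of them, with log2 ratios of -0.529 for Proc (95585_at), -0.407 for Serpinc1 and -0.542 for F10 (96501_at). It was the TCE array of that group with a Gapdh difference not above 1 (0.094). The others were mouse single-dose oil 3 for F10 (103977_at), at -0.149, rat single-dose oil 3 for Proc, at -0.313, and rat single-dose TCE 4 for Pros1, at 0.174, which was the rat single-dose array with the largest Gapdh difference (1.898). The change after 14 doses differed between the mouse and rat probe sets for F2 (-1.248, limma adjusted p = 0.00274) and for Pros1 (-1.681, adjusted p = 0.00212). Species and probe set cannot be told apart there.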

How the results depend on the processing

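Every called member change kept its direction in all alternatives, but the counts of calls did not keep their size. For mouse single dose (6 of 13) the count was 0 with quantile normalization, 3 with centring on array medians, 1 with the Gapdh covariate, 3 using only the arrays of the comparison, 0 without the arrays above 1 for Gapdh, and 2 to 6 leaving out each array in turn. For mouse repeated dose (7) it was 0 with quantile normalization, 2 using only the arrays of the comparison, 0 without the arrays above 1, and 6 to 8 leaving out each array. For rat single dose (1) it was 0 with quantile normalization, 3 with array weights, 3 without the noisiest 40% of probe sets, 2 with the Gapdh covariate, 0 using only its own arrays, 0 without the arrays above 1, and 0 to 1 leaving out each array. The species counts were 0 after 1 dose and 2 after 14. They became 1 with array weights and 1 without the noisiest 40% after 1 dose, and 0 with quantile normalization and 1 without the arrays above 1 after 14; leaving out each array gave 0 to 1 and 2 to 3. Rat repeated-dose and schedule counts were 0 in every alternative run. With the replicate block the counts were 0 for mouse single dose, 1 (F2) for mouse repeated dose and 0 for rat single dose. Deviations of same-numbered arrays correlated at -0.173 to 0.078, so the numbers were not taken as pairs. Each mouse single-dose array correlated best with its own number, a hint from the data and not the design. Quantile normalization left 59 and 7 calls over all mouse probe sets in the schedules and 2 and 7 in rat. Only 4 arrays per group, with no signal over background in the files, limit all values; the causes of these shifts were not tested.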
